A study of Mus musculus with 19 samples.

Results

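The 36 genes described here encode the machinery of mitosis: the cyclins and kinases that start it, the checkpoint and kinetochore proteins that attach chromosomes to the spindle, the motors that build the spindle, and the proteins that cut the cell in 2. They were taken by symbol from a table of 36172 genes measured by RNA sequencing of whole mouse ovaries, and all 36 were found and passed the filter on low counts. The mice were female C57BL/6, an inbred strain, with no treatment or genotype difference named in the labels. Ovaries were collected at 3 months (5 libraries), 6 months (5 libraries), 9 months (5 libraries) and 12 months (4 libraries) of age, so age was the only difference between groups. No label ties a library to its own animal, and the p-values therefore measure only how these libraries vary, which may be technical variation. Sample numbers in the titles follow age, so an effect of handling order cannot be told apart from age.

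Entry into mitosis is driven by cyclin B bound to the kinase CDK1, and exit by the anaphase promoting complex, which marks cyclin B and securin for destruction once every kinetochore is attached. In the ovary most mitosis takes place in the granulosa cells of growing follicles, which multiply around the oocyte. The oocyte itself does not divide by mitosis but stores transcripts of several of the same genes, cyclin B1 among them, for its meiotic divisions. Whole-ovary RNA sums over all these cells, so fewer cells of a type and less RNA per cell cannot be told apart.

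Library totals ran from 10851519 to 14302207 estimated counts, and 15518 genes passed the filter. Levels are given as CPM, counts scaled to the library's total with TMM factors, and changes as log2 changes with a standard error (SE) from edgeR's quasi-likelihood test, called at a Benjamini-Hochberg adjusted p under 0.05 over all genes tested. In 3 libraries (9 month replicates 1 and 2, 12 month replicate 2) Cr2, a marker of B cells and follicular dendritic cells, stood at 6.15, 10.7 and 12.5 CPM. None of the other 16 libraries exceeded 0.837 CPM. These 3 are called libraries with lymph node transcripts below, a name that rests on Cr2 and not on the labels. Lymph node tissue and lymphocytes within the ovary were not told apart. The main counts over the 36 genes are also given without these 3 libraries. Oocyte markers stood in every library, with a summed level of 20 genes between 32.3 CPM in 9 month replicate 2 and 875 CPM at 3 months.

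All 36 genes had their highest mean at 3 months. At 6 months the means stood at 70.6% to 96.8% of the 3 month mean (median 84.4%), at 9 months at 37.3% to 69.4% (median 49.1%) and at 12 months at 46.6% to 77.6% (median 57.6%). The lowest mean was at 9 months for 35 genes and at 12 months for 1, Anln. Summed over the 36 genes, the 3 month libraries held 1840, 1260, 1940, 1330 and 1850 CPM, and the 6 month libraries 1450, 1210, 1290, 1500 and 1560 CPM. The 9 month libraries held 857, 570, 963, 774 and 903 CPM, and the 12 month libraries 917, 917, 757 and 1260 CPM. Each 9 month sum lay below every 3 and 6 month sum. The highest 12 month library (replicate 4, 1260 CPM) reached the level of the lowest 3 month library (replicate 2, 1260 CPM). It also lay above the lowest 6 month library (replicate 2, 1210 CPM).

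**Figure D1:**
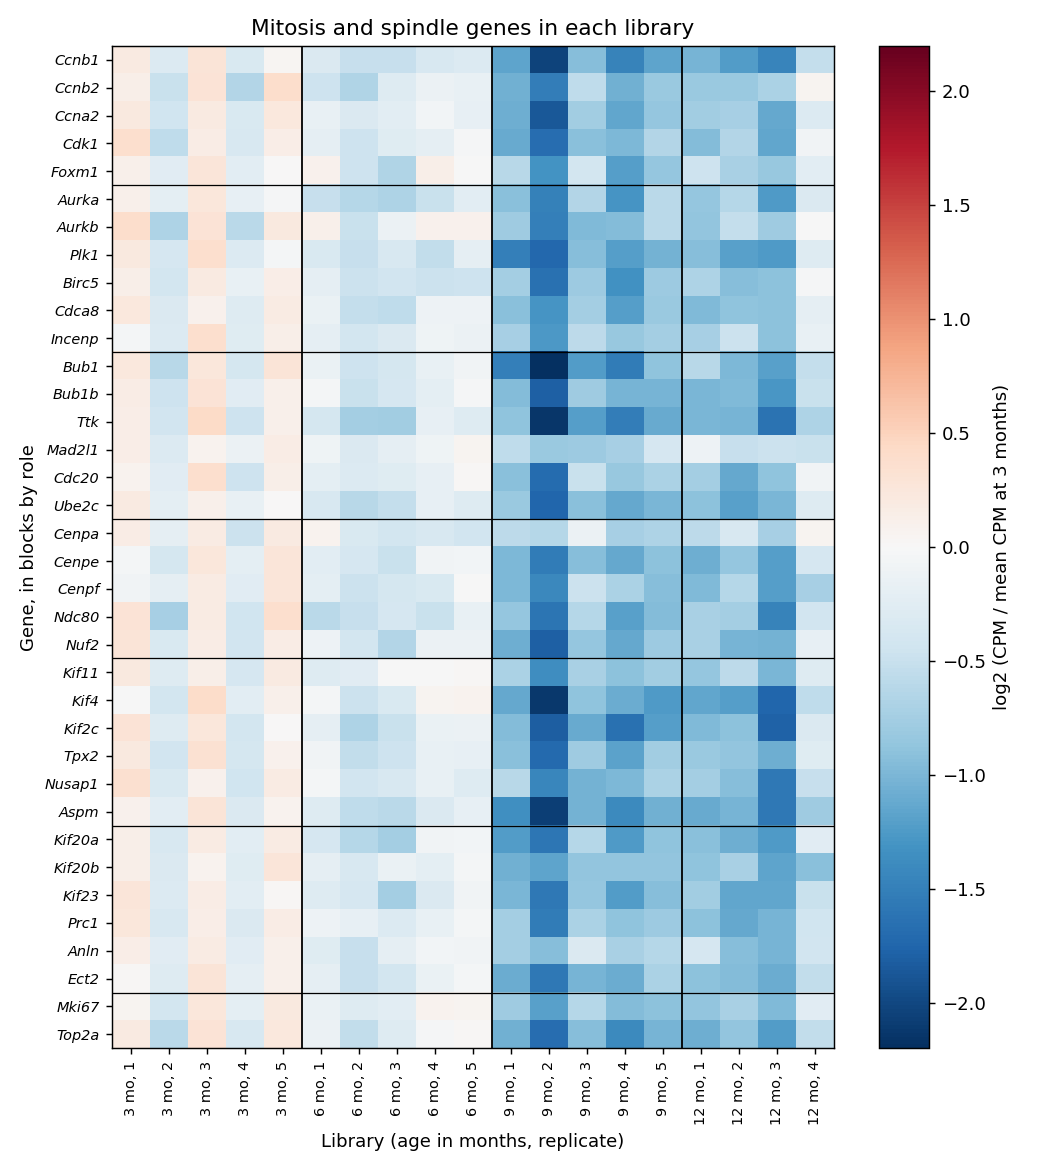
Level of each of the 36 genes (rows, in blocks by role) in each of the 19 libraries (columns, by age in months and replicate), as log2 of its CPM over the gene's mean at 3 months. Blue marks levels below that mean and red levels above it. The 9 and 12 month columns are blue for nearly every gene, and 9 month replicate 2 is the darkest column. At 3 months replicates 2 and 4 are light blue for most genes, whereas the other 3 month libraries are mostly light red.

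Between 3 and 9 months 36 of the 36 genes fell, where 13.6% of all genes tested were called lower, with a median log2 change of -1.03. Between 3 and 12 months 32 of the 36 fell, where 11.5% of all genes were called lower, with a median of -0.80 against 0.02 over all 15518 genes. Between 6 and 9 months 32 of the 36 fell (9.8% of all genes called lower), with a median of -0.76. Both contrasts from 3 months share the 3 month libraries, and those from 3 and 6 months to 9 months share the 9 month libraries. Along age, fitted as a straight line over all 19 libraries and given as the change over 9 months, 35 of the 36 fell (14.8% of all genes called lower), with a median of -0.94. Without the 3 libraries with lymph node transcripts 34 of the 36 fell between 3 and 9 months (9.38% of all genes called lower), 28 between 3 and 12 months (12.9%), 21 between 6 and 9 months (7.09%) and 33 along age (14.1%).

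The step from 3 to 6 months gave no call among the 36 genes and 3 calls in all (0.0193% of genes, either direction, edgeR). All 36 log2 changes lay below 0, with a median of -0.25, and 6 had an unadjusted p under 0.05, as had 9.85% of all genes. DESeq2 also called none of the 36, and limma-voom called 1, Aurka. The calls of these tools over all genes are not given here. Between 9 and 12 months edgeR called none of the 36 and none of all genes (0%). Of the 36 changes 35 lay above 0, with a median of 0.26, and 3 had an unadjusted p under 0.05, as had 13.9% of all genes. DESeq2 and limma-voom called none of the 36 in that step either.

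Counted by library rather than by test, every 9 month library lay below every 3 month library for 32 of the 36 genes, where 9.42% of all genes did so. Every 12 month library lay below every 3 month library for 14 (9.75% of all genes), and every 9 month library below every 6 month library for 30 (7.74% of all genes). Between 3 and 6 months this held for 1 gene, Aurka (1.86% of all genes), and between 9 and 12 months for none (1.11% of all genes). Without the 3 libraries with lymph node transcripts the counts were 32 between 3 and 9 months (12.8% of all genes) and 14 between 3 and 12 months (13% of all genes). They were 30 between 6 and 9 months (12.2% of all genes) and 1 between 9 and 12 months, Kif20b (5.86% of all genes). Leaving libraries out can only keep or raise such a count, so these counts are no check of those from all libraries.

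**Figure D2:**
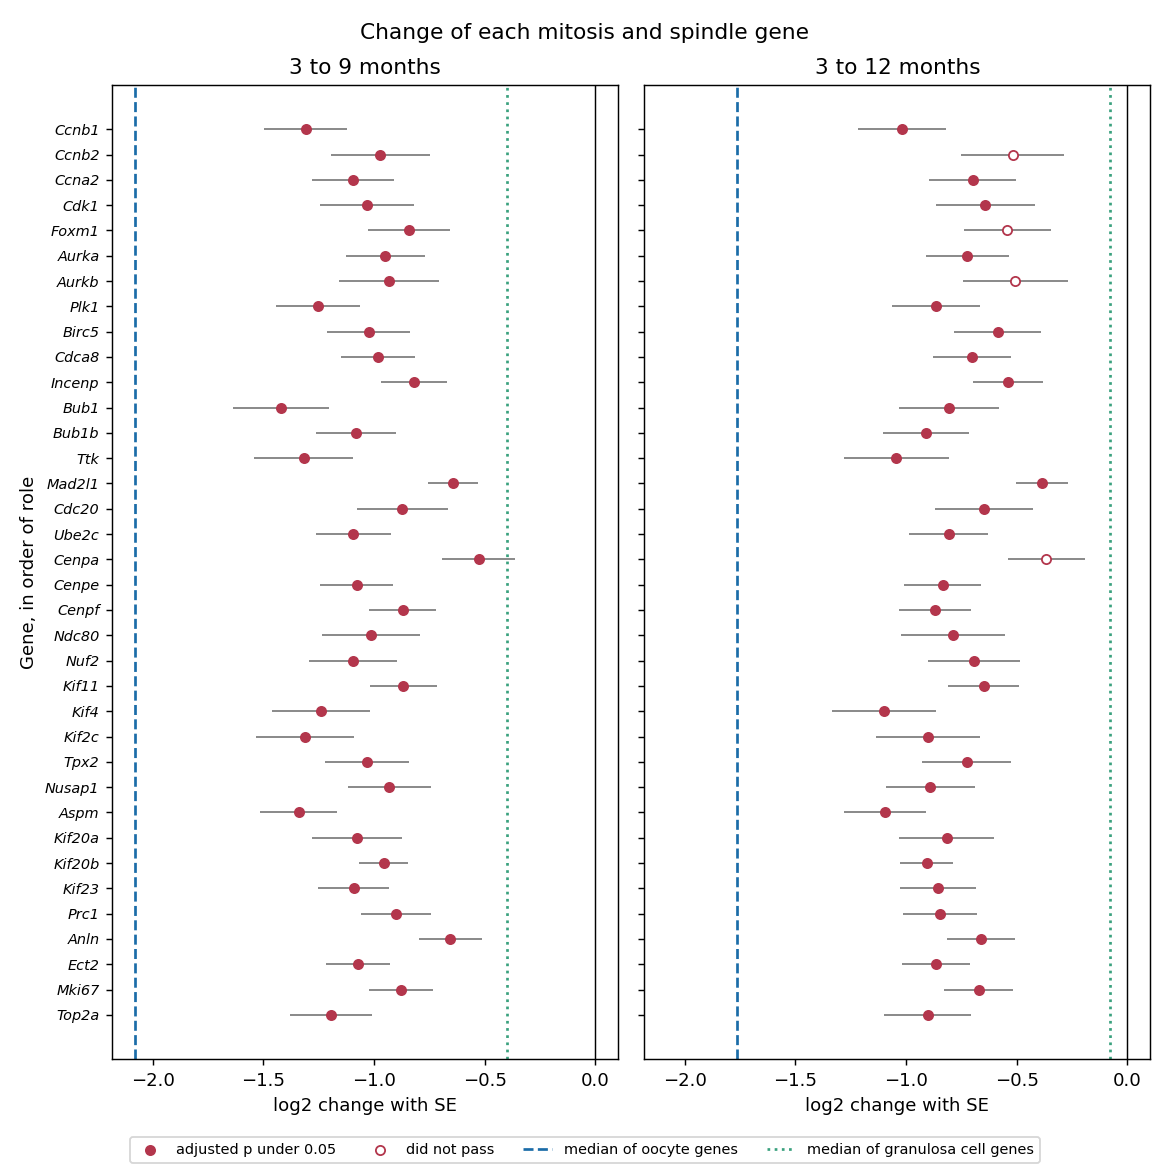
Log2 change of each gene between 3 and 9 months (left) and between 3 and 12 months (right), as points with the SE; filled points passed an adjusted p under 0.05. Vertical lines give the median change of 20 oocyte genes (dashed) and of 18 granulosa cell genes (dotted): all points lie between 0 and the oocyte median, and the 4 open points at 12 months are Ccnb2, Foxm1, Aurkb and Cenpa.

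Many mitotic genes share 2 short promoter elements, the CCAAT box bound by NF-Y and the cell cycle genes homology region (CHR) bound by the DREAM and MuvB complexes, so the promoters were read for these letters. RefSeq promoters (GRCm38.p6) were held for 30 of the 36 genes (not for Ccna2, Aurkb, Incenp, Foxm1, Tpx2 and Kif20a), and the window was the 250 bases before the outermost start listed. CCAAT on either strand was present in 22 of the 30 windows (73.3%), against 34.5% of 27025 promoters of the same length. A CHR, searched as TTTGAA or TTCGAA on either strand, was present in 10 (33.3%), against 17.5%. Both were present in 9 windows (30.0%), against 6.23%: Bub1b, Ccnb2, Cdc20, Cdk1, Ect2, Kif11, Mki67, Top2a and Ube2c. The 5 of these with the smallest p between 3 and 12 months are printed 5′ to 3′ on the gene's strand, with every match to either element in capitals (CCAAT may read ATTGG, and TTTGAA may read TTCAAA). They lie at chr3:27153879-27154128 (minus strand), chr2:118597961-118598210 (plus), chr2:164769679-164769928 (plus), chr11:99024190-99024439 (minus) and chr7:135716380-135716629 (minus). RefSeq gene spans, which include predicted transcripts, reach into the windows of Bub1b, Top2a and Mki67. The Ect2 span, which ends at 27154253, covers the whole Ect2 window, so by that span the window is not upstream of the gene.
Ect2: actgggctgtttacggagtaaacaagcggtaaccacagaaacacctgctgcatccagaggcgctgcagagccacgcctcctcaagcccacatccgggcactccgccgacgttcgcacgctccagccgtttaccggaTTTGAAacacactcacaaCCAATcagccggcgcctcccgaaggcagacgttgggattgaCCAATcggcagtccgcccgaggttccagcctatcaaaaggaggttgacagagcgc
Bub1b: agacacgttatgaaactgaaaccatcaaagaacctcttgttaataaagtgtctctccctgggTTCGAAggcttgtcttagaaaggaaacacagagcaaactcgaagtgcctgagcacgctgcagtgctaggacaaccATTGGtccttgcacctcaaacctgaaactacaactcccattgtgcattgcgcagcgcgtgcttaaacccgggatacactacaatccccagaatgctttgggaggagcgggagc
Ube2c: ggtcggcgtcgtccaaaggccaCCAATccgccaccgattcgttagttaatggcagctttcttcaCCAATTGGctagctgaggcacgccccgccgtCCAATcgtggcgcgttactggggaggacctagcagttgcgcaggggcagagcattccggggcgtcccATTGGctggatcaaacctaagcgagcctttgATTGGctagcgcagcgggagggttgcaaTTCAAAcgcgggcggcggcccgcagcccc
Top2a: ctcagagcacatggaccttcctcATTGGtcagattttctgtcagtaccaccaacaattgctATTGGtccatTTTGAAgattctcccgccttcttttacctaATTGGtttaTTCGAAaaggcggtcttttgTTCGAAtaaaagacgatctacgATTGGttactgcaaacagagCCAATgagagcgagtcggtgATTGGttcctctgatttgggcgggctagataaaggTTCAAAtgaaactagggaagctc
Mki67: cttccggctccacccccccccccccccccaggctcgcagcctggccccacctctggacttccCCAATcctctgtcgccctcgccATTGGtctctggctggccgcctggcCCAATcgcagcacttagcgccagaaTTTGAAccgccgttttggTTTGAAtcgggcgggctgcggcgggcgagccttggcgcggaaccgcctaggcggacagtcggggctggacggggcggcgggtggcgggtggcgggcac
In the Ube2c window a CCAAT and an ATTGG overlap and read as one run of capitals. The Top2a window held 6 CCAAT boxes and 4 CHR matches, the first bases of which lay 227 to 23 bases before the start, whereas the Bub1b window held 1 of each, at 113 and 188 bases. These are matches of letters only, and binding was not measured. Bases after the start and other forms of the elements were not searched, so a window without a match does not show that the gene lacks one.

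Among the cyclins, CDK1 and the transcription factor that serves them, 3 of 5 genes fell by 12 months and 5 by 9 months. For this and the following groups by role, 11.5% of all genes were called lower by 12 months and 13.6% by 9 months. Ccnb1 (chromosome 13, 100778739 to 100786486, GRCm38.p6), which encodes cyclin B1, the main mitotic cyclin, read 65.7, 46.3, 69.2, 45 and 58.6 CPM in the 3 month libraries and 45.5, 40, 40.2, 44.8 and 46.1 CPM in the 6 month libraries. It read 25.4, 13.9, 29.6, 20.6 and 25.6 CPM at 9 months and 28.1, 24.3, 20.7 and 39.4 CPM at 12 months. Every 9 and 12 month library thus lay below every 3 and 6 month library. Ccnb1 fell by 1.02 ± 0.20 (log2, SE) by 12 months (edgeR adjusted p = 0.00268).

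Ccnb2 encodes cyclin B2, the second mitotic B-type cyclin. It read 31.8, 20.7, 35.7, 18.6 and 38 CPM at 3 months, 21.2, 18.2, 23.9, 26.5 and 25.9 CPM at 6 months, 13.9, 10.1, 19.6, 14 and 16.4 CPM at 9 months and 16.5, 16.4, 17.8 and 30.1 CPM at 12 months. The 12 month libraries overlapped the 3 month ones through replicate 4, and the change of -0.52 ± 0.23 did not pass (edgeR adjusted p = 0.117). By 9 months Ccnb2 fell by 0.97 ± 0.22. Ccna2, encoding cyclin A2 of S phase and mitotic entry, averaged 75.6 ± 16.4 CPM (SD, n = 5) at 3 months and 46.5 ± 11.1 CPM (SD, n = 4) at 12 months, and fell by 0.70 ± 0.20 by 12 months.

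Cdk1, the kinase that these cyclins activate, went from 44.1 ± 11.4 CPM to 28.3 ± 9.74 CPM by 12 months (edgeR adjusted p = 0.0462), a call that was lost when any of 14 libraries was left out singly. Foxm1 encodes a transcription factor that activates mitotic genes. It went from 25.4 ± 3.95 CPM to 17.4 ± 3.25 CPM at 12 months, a change of -0.54 ± 0.20 that did not pass (edgeR adjusted p = 0.0526), and fell by 0.84 ± 0.18 by 9 months.

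**Figure D3:**
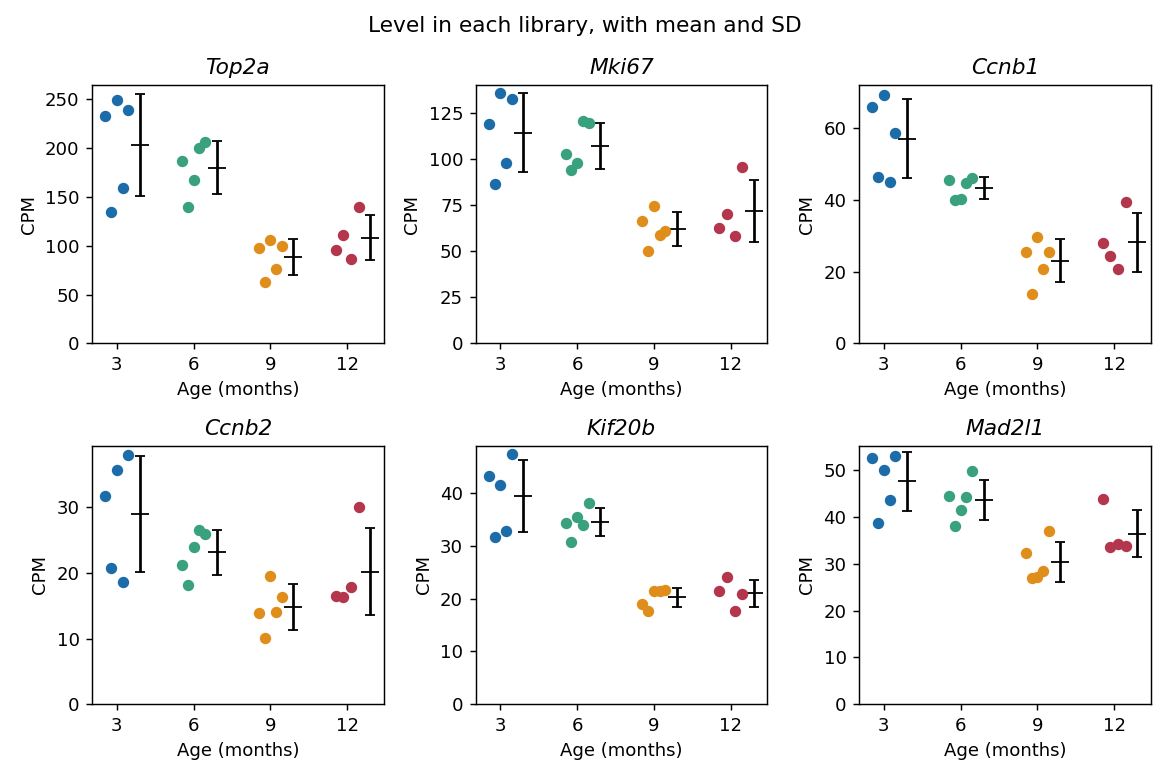
CPM of 6 of the genes in each library (points) by age in months, with the mean and SD beside each group. The 9 and 12 month points of Kif20b and Ccnb1 all lie below the 3 and 6 month points, whereas Ccnb2 and Mad2l1 each have 1 high 12 month library, at 30.1 and 44.0 CPM.

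Of the 6 genes of mitotic kinases and the chromosomal passenger complex, 5 fell by 12 months. Aurka, the kinase of centrosome maturation and spindle assembly, read 24.1, 19.4, 26.7, 19.8 and 22.1 CPM at 3 months and 15.8, 14.5, 14, 15.9 and 19 CPM at 6 months. It was the one gene of the 36 whose 6 month libraries all lay below its 3 month libraries. At 9 months it read 11.8, 7.99, 14.3, 9.13 and 14.9 CPM and at 12 months 12.4, 14.5, 9.49 and 17.9 CPM, and it fell by 0.72 ± 0.19 by 12 months (edgeR adjusted p = 0.0109). Plk1, the kinase that promotes mitotic entry and spindle assembly, went from 24.2 ± 5.36 CPM to 13.3 ± 4.55 CPM and fell by 0.86 ± 0.20.

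Aurora B and its 3 partners form the complex that corrects wrong attachments at the centromere. Aurkb itself read 26.7, 12.7, 25.1, 13.5 and 23.6 CPM at 3 months and 11.1, 14.1, 11.8 and 20.2 CPM at 12 months. The ages overlapped, and its change of -0.51 ± 0.24 did not pass (edgeR adjusted p = 0.133). Its partners did pass: Cdca8 (borealin) fell by 0.70 ± 0.18, Birc5 (survivin) by 0.59 ± 0.20 and Incenp, the scaffold, by 0.54 ± 0.16. By 9 months all 4 fell, by 0.93 ± 0.23 for Aurkb and by 0.82 to 1.02 for the others. Whether Aurkb differed from its partners at 12 months was not tested.

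All 6 genes of the spindle checkpoint and the anaphase promoting complex fell by 12 months. Bub1, a checkpoint kinase at the kinetochore, showed the largest fall of the 36 genes by 9 months, 1.42 ± 0.22. It read 43.5, 24.4, 43.9, 28.4 and 45.1 CPM at 3 months, 13, 7.63, 15.8, 12.7 and 20 CPM at 9 months and 24.2, 18.6, 16.2 and 25.7 CPM at 12 months. Its 12 month libraries thus overlapped those at 3 months, and it fell by 0.81 ± 0.23 by 12 months. Bub1b (BubR1), which holds CDC20 inactive, went from 71.3 ± 14.8 CPM to 38 ± 9.08 CPM and fell by 0.91 ± 0.19. Ttk (MPS1), the kinase that switches the checkpoint on, went from 20.2 ± 5.22 CPM to 9.81 ± 2.53 CPM and fell by 1.04 ± 0.24.

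Mad2l1 encodes MAD2, the checkpoint protein that captures CDC20, and had the smallest called change of the 36. It read 52.7, 38.7, 50.1, 43.7 and 53.1 CPM at 3 months and 44, 33.7, 34.3 and 33.8 CPM at 12 months, and fell by 0.39 ± 0.12 (edgeR adjusted p = 0.0242). Replicate 1 at 12 months overlapped the 3 month range and the other 3 libraries lay below it. Cdc20, the activator of the anaphase promoting complex, fell by 0.65 ± 0.22, and Ube2c, its ubiquitin-conjugating enzyme, fell by 0.81 ± 0.18 from 32.2 ± 3.99 CPM to 18.4 ± 5.43 CPM.

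At the centromere and kinetochore 4 of 5 genes fell by 12 months. Cenpa, the histone H3 variant that marks centromeres, read 21.2, 16.4, 21.4, 13.6 and 21.6 CPM at 3 months and 12.7, 14.7, 11.3 and 19.7 CPM at 12 months. It kept the highest share of its 3 month mean of the 36 genes at 9 months (69.4%) and at 12 months (77.6%), and its change of -0.37 ± 0.18 did not pass (edgeR adjusted p = 0.142). Cenpf, a large kinetochore protein, went from 71.9 ± 11.4 CPM to 39.4 ± 6.77 CPM with no overlap between those ages, and fell by 0.87 ± 0.16. Cenpe, a kinetochore motor, fell by 0.83 ± 0.17. Ndc80 and Nuf2, which together form the arm that grips microtubules, fell by 0.79 ± 0.24 and 0.69 ± 0.21.

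The 6 genes of spindle motors and microtubule-binding proteins all fell by 12 months. Kif4, a chromosome-bound motor, and Aspm, a spindle pole protein, had the largest changes of the 36 at 12 months: Kif4 fell by 1.10 ± 0.24 and Aspm fell by 1.10 ± 0.18. Aspm read 51.2, 40.8, 58.9, 38.7 and 51 CPM at 3 months, 39.5, 32.8, 31.8, 38.5 and 42.7 CPM at 6 months, 19, 11.5, 23.3, 18.2 and 23.1 CPM at 9 months and 22.4, 23.6, 16.2 and 27.9 CPM at 12 months. Each of its 9 and 12 month libraries lay below each of its 3 and 6 month libraries. Kif11, the motor that pushes spindle poles apart, fell by 0.65 ± 0.16 and Kif2c, which takes microtubules apart at centromeres, fell by 0.90 ± 0.23. Tpx2, which activates Aurora A on the spindle, fell by 0.73 ± 0.20 and Nusap1, which bundles spindle microtubules, fell by 0.89 ± 0.20.

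The 6 genes of the central spindle and cytokinesis all fell by 12 months, with log2 changes of -0.91 to -0.66. Kif20b, a motor of the late mitotic midzone, had the smallest p of the 36 genes and read 43.3, 31.7, 41.6, 32.9 and 47.5 CPM at 3 months, 34.3, 30.7, 35.4, 33.9 and 38.2 CPM at 6 months, 19, 17.7, 21.5, 21.5 and 21.7 CPM at 9 months and 21.4, 24.1, 17.7 and 20.8 CPM at 12 months. Its 9 and 12 month libraries lay in one narrow band below both younger ages. It fell by 0.91 ± 0.12 by 12 months (edgeR adjusted p = 0.000213). Kif20a, its relative in the central spindle, fell by 0.82 ± 0.22 with overlapping ages.

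Kif23, the motor subunit of centralspindlin, fell by 0.86 ± 0.17, and Prc1, which crosslinks the midzone microtubules, fell by 0.85 ± 0.17. Ect2, the exchange factor that switches on RhoA at the cleavage furrow, went from 41.9 ± 6.60 CPM to 23 ± 3.92 CPM and fell by 0.86 ± 0.15. Anln, the scaffold of the contractile ring, read 34.5 ± 5.62 CPM at 9 months and 34.3 ± 8.12 CPM at 12 months, and fell by 0.66 ± 0.15 by 12 months.

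Both genes of mitotic chromosome proteins fell by 12 months. Mki67 (Ki-67), the coat protein of mitotic chromosomes used as a proliferation marker, read 119, 86.5, 136, 98.3 and 133 CPM at 3 months, 103, 94.3, 97.9, 121 and 120 CPM at 6 months, 66.6, 50, 74.5, 59 and 61 CPM at 9 months and 62.9, 70.1, 58.2 and 95.9 CPM at 12 months. Only 12 month replicate 4 reached the 3 month range, and Mki67 fell by 0.67 ± 0.15 (edgeR adjusted p = 0.00627). Top2a, the topoisomerase that untangles chromosomes, read 232, 134, 249, 159 and 238 CPM at 3 months, 186, 139, 167, 200 and 206 CPM at 6 months, 97.4, 63.2, 106, 76.3 and 99.1 CPM at 9 months and 95.7, 111, 86.8 and 139 CPM at 12 months. Replicate 4 again overlapped the lowest 3 month library, and Top2a fell by 0.90 ± 0.20 (edgeR adjusted p = 0.00509).

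Levels were set between genes only per length, as CPM per kilobase of the gene's joined exons in GENCODE M21, which counts exons of every isoform. On that scale Top2a was highest at 3 months (22.5 ± 5.79, SD, n = 5), followed by Ccnb2 (18.9 ± 5.76), Ccna2 (18.5 ± 4.01) and Bub1b (16.7 ± 3.45). Each of these lay within the SD of the next in order. The lowest were Nuf2 (3.81 ± 0.805), Cenpa (3.22 ± 0.619) and Ndc80 (2.91 ± 0.906). Cenpa lay within the SD of both, whereas Nuf2 and Ndc80 differed by more than the SD of Nuf2 but by less than that of Ndc80.

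Within an age, the same libraries were high or low for most of the genes. Replicates 2 and 4 at 3 months were the lowest of their age for 24 and 12 genes, which makes up all 36. At 9 months replicate 2 was the lowest for 35. At 12 months replicate 3 was the lowest for 27 and replicate 4 the highest for 32. Because the genes share these libraries, the 36 changes are not 36 independent observations. Without 12 month replicate 3, 21 of the 36 genes rather than 32 were called between 3 and 12 months (calls over all genes are given below). These 21 kept their call when any single library was left out, and the other 11 (Birc5, Bub1, Ccna2, Cdc20, Cdk1, Incenp, Kif20a, Mad2l1, Ndc80, Nuf2 and Tpx2) lost it in at least 1 case.

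Other cell cycle genes were described from lists of the pathway. Of 61 further mitosis genes tested, 39 fell and 0 rose between 3 and 12 months (11.5% of all genes were called lower and 10.9% higher), with a median log2 change of -0.65. Sgol2, a protector of centromeric cohesion, fell by 1.03 ± 0.18, Smc4, a condensin subunit, by 0.61 ± 0.11 and Espl1 (separase), which cuts cohesin, by 0.96 ± 0.17. Of 24 DNA replication genes 16 fell and 0 rose, with a median of -0.59. Mcm4, part of the replicative helicase, fell by 0.60 ± 0.11, Rfc4, part of the clamp loader, by 0.65 ± 0.12 and Uhrf1, which couples DNA methylation to replication, by 0.92 ± 0.20.

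Of 23 genes of the G1 phase (cyclins, CDK inhibitors and transcription factors) 5 fell and 1 rose, with a median of -0.23, beside the same 11.5% lower and 10.9% higher of all genes. Ccnd2, the cyclin D2 gene and a target of FSH in granulosa cells, went from 385.8 ± 25.3 CPM to 277.1 ± 6.87 CPM and fell by 0.48 ± 0.10. Cdk2, a kinase of S phase entry, fell by 0.34 ± 0.09 and E2f3, a transcription factor of the same step, by 0.55 ± 0.16. The gene that rose, named after its value was seen, was Ccnd1, the cyclin D1 gene, by 0.32 ± 0.11. Without 12 month replicate 3 the falls were 23 among the further mitosis genes, 9 among the replication genes and 2 among the G1 genes, and 1038 of 15688 genes in all were called lower.

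As a rough mark of genes that oocytes also hold, the 36 were split by textbook knowledge of meiotic roles. Whether oocytes hold the other genes too was not measured, so the split is not one of oocyte against somatic genes. A group of 9 (Ccnb1, Ccnb2, Cdk1, Aurka, Plk1, Bub1b, Mad2l1, Cdc20 and Tpx2) has well known roles in the meiotic maturation of oocytes, although dividing somatic cells express them too. Between 3 and 12 months 8 of these 9 fell, with a median log2 change of -0.72, and 24 of the other 27 fell, with a median of -0.81. Of all genes 11.5% were called lower. Without 12 month replicate 3 the counts were 4 of 9 and 17 of 27 (calls over all genes are given above). Without the 3 libraries with lymph node transcripts they were 5 of 9 and 23 of 27 (12.9% of all genes called lower). By 9 months the medians were -1.03 and -1.02, and all 9 and all 27 fell (13.6% of all genes called lower). A difference between the 2 groups was not tested, since their members share cells and libraries.

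The ratio of Ccnb1 to Ccnb2 was compared because these genes are close relatives, and it was chosen with its values known. Both have well known roles in the meiotic maturation of oocytes, and dividing somatic cells express both. The ratio therefore cannot separate transcript of oocytes from that of dividing cells. In the 3 month libraries the ratio of estimated counts was 2.07, 2.23, 1.94, 2.42 and 1.55, and at 12 months 1.71, 1.48, 1.16 and 1.31. The mean was 2.04 ± 0.331 (SD, n = 5) at 3 months, 1.55 ± 0.17 (SD, n = 5) at 9 months and 1.41 ± 0.235 (SD, n = 4) at 12 months. By an exact permutation test, two-sided, the difference at 12 months had p = 0.0317, where 0.0159 is the smallest possible, and p = 0.106 after adjustment over the 8 ratio tests. At 9 months p was 0.0238 by the same exact permutation test and 0.106 after adjustment. The other 6 tests, of Aurka to Aurkb, Bub1b to Bub1 and Kif20b to Kif20a, had adjusted p of 0.106 to 0.857, so no ratio difference passed.

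Oocyte genes had larger log2 changes than the mitosis genes, a difference that was not itself tested. Of 20 oocyte genes 19 fell by 12 months, with a median log2 change of -1.76 and a range of -2.12 to -1.32, all beyond the largest of the 36, -1.10. In this contrast 11.5% of all genes were called lower. Ooep, of the subcortical maternal complex, fell by 1.61 ± 0.28, Oas1d by 2.12 ± 0.38 and the oocyte linker histone gene H1foo by 1.74 ± 0.32. Of 11 genes with roles in the oocyte's meiotic cell cycle 6 fell, with a median of -1.21. How much of the transcript of these genes came from oocytes was not measured. Mos, the kinase that holds the egg at metaphase of meiosis, fell by 1.84 ± 0.37 and Btg4, which directs maternal mRNA decay, by 1.97 ± 0.40. Spin1, which encodes a spindle-associated chromatin reader, fell less. It stood at 437.2 ± 23.5 CPM at 3 months and 318.8 ± 38.4 CPM at 12 months, and fell by 0.46 ± 0.08.

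Of 18 granulosa cell genes tested 5 fell and 1 rose by 12 months, with a median of -0.08, where 11.5% of all genes were called lower and 10.9% higher. By 9 months 5 fell and 0 rose, with a median of -0.40, where 13.6% were called lower and 11.3% higher. The list held genes that moved in opposite ways. Along age Amh fell by 1.53 ± 0.38 and Esr2 by 1.08 ± 0.26, whereas Nppc rose by 1.29 ± 0.30. Amh, named after its value was seen, averaged 199.5 ± 57.7 CPM at 3 months and 86.2 ± 14.2 CPM at 12 months. Without 12 month replicate 3, 3 fell and 1 rose by 12 months. For that fit the calls lower over all genes are given above, and those higher are not given here. Without the 3 libraries with lymph node transcripts 6 fell and 3 rose, where 12.9% of all genes were called lower and 25% in either direction. Slc18a2, a monoamine transporter gene, went from 184.1 ± 38.1 CPM to 57.5 ± 12.1 CPM and fell by 1.68 ± 0.29. Kitl, the KIT ligand that granulosa cells present to the oocyte, fell by 0.39 ± 0.09 and Esr2, the granulosa oestrogen receptor, by 0.86 ± 0.21. The gene that rose was Nppc, which encodes the natriuretic peptide that holds the oocyte in meiotic arrest, by 1.36 ± 0.34, and it too was named after its value was seen. The summed level of the 18 genes ran from 3830 to 5440 CPM at 3 months, 4110 to 5640 CPM at 6 months, 1910 to 4900 CPM at 9 months and 2890 to 4940 CPM at 12 months, overlapping at every pair of ages.

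Markers of other cells were counted in the same contrast, 3 to 12 months, in which 11.5% of all genes were called lower and 10.9% higher. In the theca and interstitial list 5 of 10 fell and none rose (Insl3 fell by 1.49 ± 0.32). Of 11 corpus luteum genes 1 rose, Lhcgr by 1.45 ± 0.47, a share near that of all genes. Without 12 month replicate 3 these counts were 3 and 0. For that fit the calls lower over all genes are given above, and those higher are not given here. Of 15 lymphocyte genes tested 11 rose and 0 fell, with summed levels of 17.2 to 27 CPM at 3 months and 67.6 to 610 CPM at 12 months; without the 3 libraries with lymph node transcripts 6 of 14 tested rose. Of 9 endothelial genes 4 rose, of 8 surface epithelium genes 4 rose, and of 8 ciliated oviduct genes 2 rose and 1 fell (Ccno, which is also on the list of the oocyte's meiotic cell cycle genes). Without the 3 libraries with lymph node transcripts 5 ciliated oviduct genes rose. In the fit without these libraries 12.9% of all genes were called lower and 25% in either direction. Among these lists Plvap, an endothelial gene, rose by 1.19 ± 0.23 and Krt7, an epithelial keratin, by 1.15 ± 0.17. Their part in the change of the mitosis genes was not tested. Leaving out the 3 libraries with lymph node transcripts does not test that of lymphocytes. The remaining 12 month libraries still held summed lymphocyte levels of 142, 67.6 and 150 CPM (replicates 1, 3 and 4), above all 3 month libraries. Without those 3, the 28 of the 36 genes that still fell between 3 and 12 months came with a median of -0.74 over all 36.

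**Figure D4:**
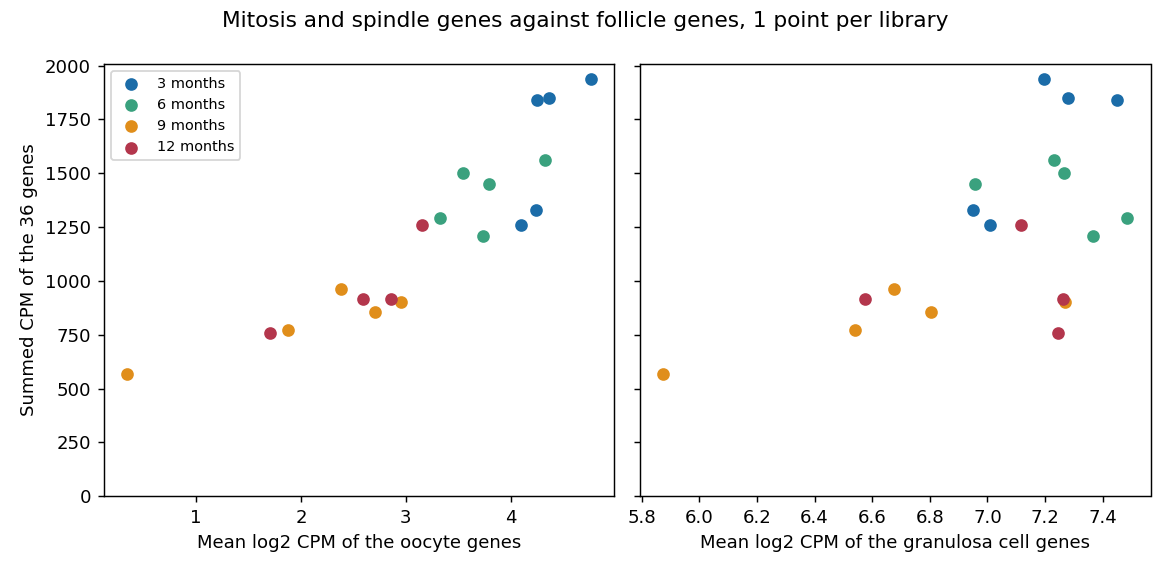
Summed CPM of the 36 genes in each library (vertical axis) against the mean log2 CPM of 20 oocyte genes (left) and of 18 granulosa cell genes (right), coloured by age. The oocyte mean separates the younger from the older ages, with 9 month replicate 2 alone at 0.34; the granulosa mean of most libraries lies between 6.5 and 7.5 at every age.

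Whether libraries of one age with more oocyte transcript also held more of the mitosis genes was asked by adding the mean log2 CPM of the 20 oocyte genes to the model with a mean per age. All 36 slopes were above 0, with a median of 0.34 (log2 change per unit of the oocyte mean), and 22 of the 36 were called positive, where 2.72% of all genes were. None was called negative. The steepest was that of Ttk, 0.51 ± 0.10 (edgeR adjusted p = 0.00561), and the smallest p was that of Aspm, with a slope of 0.42 ± 0.06 (edgeR adjusted p = 0.000644). Among the 9 genes with meiotic roles 6 were called, and among the other 27, 16.

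Mki67 (slope 0.24 ± 0.08), Top2a (0.33 ± 0.09) and Kif20b (0.13 ± 0.07) were among the 14 genes not called. The count rested on 1 library: without 9 month replicate 2, which had the lowest oocyte mean (0.34, against 1.71 to 4.76 in the others) and also lymph node transcripts, the median slope was 0.41 and 2 genes were called, Aurka and Aspm, where 0.543% of all genes were called positive. The same 2 were called without all 3 libraries with lymph node transcripts (0.547% of all genes).

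With the mean of the granulosa cell genes in place of the oocyte mean, edgeR called none of the 36 slopes, where 0.664% of all genes were called positive, although the median slope was 0.40 and 15 had an unadjusted p under 0.05, as had 17.3% of all genes. DESeq2 called 2, Bub1 and Prc1, and its share over all genes is not given here. With both means in 1 model, 6 genes followed the oocyte mean (Ccnb1, Aurka, Bub1b, Ttk, Kif4 and Aspm), where 0.909% of all genes were called positive, and none followed the granulosa mean (0.251% of all genes). The 2 means move together in part, being both lowest in 9 month replicate 2, and slopes on scales of different spread were not compared in size.

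The age contrast was then fitted with each mean as a covariate. The granulosa mean averages over genes that fell and genes that rose with age, so it does not measure the number of granulosa cells. With the granulosa mean, 31 of the 36 genes fell between 3 and 12 months, with a median of -0.69, where 11.4% of all genes were called lower. Between 3 and 9 months 28 fell with that covariate (6.04% of all genes called lower), with a median of -0.81. Between 6 and 9 months 4 did in place of 32, Bub1, Aspm, Kif20b and Ect2 (2.4% of all genes called lower, in place of 9.8%), with a median of -0.54. With the oocyte mean none of the 36 was called in any of these 3 contrasts, with a median of -0.18 between 3 and 12 months, where all 36 changes were smaller in size. In that contrast 45 of all 15518 genes were called in either direction (0.29% of all genes). Of these, 36 were called lower (0.232% of all genes), so calls were lost across the table. The oocyte mean itself moves with age, from 4.10 to 4.76 at 3 months to 1.71 to 3.15 at 12 months, with no overlap, so that it and age cannot be told apart in these libraries. With both means as covariates, a fit added after seeing the data, none was called (0.0129% of all genes lower). Kif20b kept the largest change with the oocyte mean, -0.69 (edgeR adjusted p = 0.0715).

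**Figure D5:**
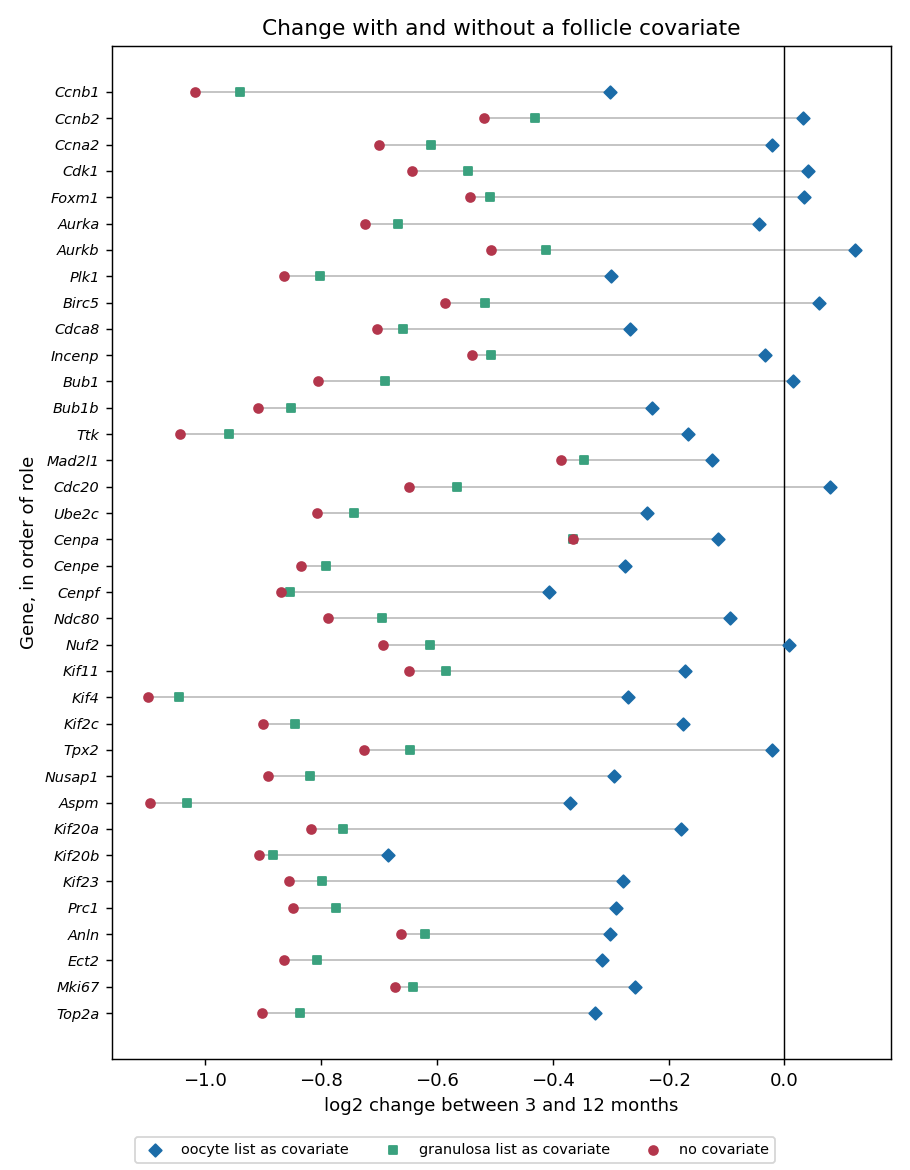
Log2 change of each gene between 3 and 12 months with no covariate (circles), with the granulosa cell mean as a covariate (squares) and with the oocyte mean as a covariate (diamonds). Squares lie close to the circles, and diamonds lie nearer to 0 for all 36 genes, with 8 of them above 0.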

How the data were processed

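RNA of mouse ovaries was sequenced in 19 libraries that keep the strand, per the labels. The authors deposited estimated counts per gene, which need not be whole (17.4% to 21.4% of nonzero values were), against RefSeq models, per the file headers, and build mm10, per the submitters' processing notes. They also deposited log2 values, normalized across libraries. For this normalization, the aligner, the counting and the use of strand, the method is not given in the sources, so overlapping genes and close copies are uncertain. Each table has 1 further column that matches no sample and was not used here.

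Counts were rounded and tested with edgeR 4.0.16 (quasi-likelihood, robust, TMM, a mean per age, minimum count 10, minimum total 15) in R 4.3.3. Alternatives used DESeq2 1.42.0 and limma 3.58.1, other filters, covariates and libraries left out. Steps were tested on simulated counts. Between 3 and 12 months 45 of 67 genes changed 1.5-fold and 59 of 67 changed 2-fold were recovered, with 9 false calls. For the slope on the oocyte list 60 of 67 genes at 1.5-fold per unit were recovered, with 19 false calls. Each gene was drawn independently, so libraries that shift many genes together were not covered. The 36 genes, 12 comparison lists (221 entries, 4 matched by gene ID) and the choice of ratios were made with earlier results of these data known. All 36 genes are named, with up to 3 genes of the cell cycle, oocyte and granulosa lists by smallest p, and 5 promoters by smallest p among those with both elements. Protein sequences were not used here.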

Additional observations from a re-analysis of the deposited data

Results flagged for a closer look

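Of 144 groups (36 genes at 4 ages) 7 held a library far from the rest by Dixon's gap test, where chance gives about 1 in 20. At 12 months Ccnb2 read 30.1 CPM in replicate 4, the next library being 17.8 CPM, and Cdca8 read 20.1 CPM in the same library, the next being 12.4 CPM. Mad2l1 read 44.0 CPM in 12 month replicate 1, the next being 34.3 CPM. At 6 months Birc5 read 20.7 CPM and Cenpa 19.8 CPM in replicate 1, the next being 17.6 and 14.9 CPM. At 9 months Cenpa read 17.3 CPM in replicate 3, the next being 12.7 CPM, and Prc1 read 21.2 CPM in replicate 2, the next being 33.2 CPM.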

How the results depend on the processing

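Counts of the 36 genes called kept within 1.5 times under other size factors, no filter or a CPM filter, the ages compared alone and the deposited log2 values (added after seeing the data). DESeq2 did so too, except for 2 genes in place of 0 on the granulosa mean, and limma-voom except for 1 in place of 0 between 3 and 6 months. With the oocyte mean as a covariate, or with both means (added after seeing the data), 0 genes were called between 3 and 12, 3 and 9, and 6 and 9 months and along age. With the granulosa mean, 4 were called between 6 and 9 months (Bub1, Aspm, Kif20b and Ect2). Without the libraries with lymph node transcripts, 21 were called between 6 and 9 months and 2 followed the oocyte mean. With both means in 1 model 6 did. Leaving out 1 library at a time gave 21 to 35 between 3 and 12 months (21 without 12 month replicate 3), 35 to 36 between 3 and 9, 0 to 0 between 3 and 6, 27 to 34 between 6 and 9, 0 to 0 between 9 and 12, 33 to 36 along age, 2 to 28 on the oocyte mean (2 without 9 month replicate 2) and 0 to 1 on the granulosa mean (Bub1, without 12 month replicate 3). Calls over all genes also move with the library left out. They are given above only without 12 month replicate 3 and without 9 month replicate 2, so the ranges cannot be set against all genes. The 12 month change turned sign with the oocyte mean for Aurkb (0.12), Birc5 (0.059), Bub1 (0.014), Ccnb2 (0.032), Cdc20 (0.079), Cdk1 (0.04), Foxm1 (0.033) and Nuf2 (0.008), and with both means for Aurkb (0.062), Foxm1 (0.093) and Incenp (0.02). The cause was not tested. No paired analysis was possible because the labels give the ages no shared replicate numbers. The smallest estimated count of the 36 genes in a library was 63.8 (Ttk, 9 month replicate 2).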
